A study of Mus musculus with 60 samples.

Results

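The cytosolic ribosomal protein genes encode the protein part of the ribosome that translates nuclear-encoded mRNA. They were taken as the protein-coding genes whose symbol is Rpl or Rps followed by a number, with an optional letter, digit or final l, together with Rplp0, Rplp1, Rplp2 and Rpsa. This gave 84 of the 52636 genes in the count table, of which 52 belong to the large subunit and 32 to the small subunit. A further group of matching symbols are annotated as pseudogenes and were left out, Rps4l among them. RNA from kidney, liver, lung, skeletal muscle, skin and spleen of aged mice had been sequenced as 60 libraries, 10 per tissue. The 4F mice carry 1 copy of a cassette of Sox2, Oct4, Klf4 and c-Myc and the rtTA transactivator, which switches the cassette on when doxycycline is given, on a C57BL/B6 background. In the treated 4F arm the drinking water held 1 mg/ml doxycycline on 2 days of the week and none on the other 5. This went on for 10 months and ended at an age of 22 months, the age of the untreated 4F mice. Wild-type C57BL/B6 mice (B6 below) lack the cassette. Their treatment is given as 5 months long in the study's design, but as 10 months for every sample in the labels' protocol. It ended at an age of 25 months, and their untreated controls are given as 26 months old in the study's design and as 25 months old in the sample labels. Per tissue, each 4F arm holds 3 libraries, from 2 females and 1 male, and each B6 arm holds 2 libraries, both from males. No source used here says which tissue samples came from the same animal. The sample numbers in the titles form 10 runs of 6, each with 1 library per tissue from 1 arm and 1 sex. The processed pseudogene Rplp0-ps1 was at 9.61 to 61.3 CPM (counts scaled to a fixed library total) in all 12 libraries of 2 such runs, both untreated 4F, and at 0.29 CPM or less in the other 48 libraries. Tissues may therefore share mice, and p-values between tissues treat libraries as separate samples.

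A ribosome holds a single copy of most of these proteins, so their genes are generally expressed together. Many of their mRNAs start with a C followed by a run of pyrimidines, the 5′ terminal oligopyrimidine tract, through which mTOR signalling and the RNA-binding protein Larp1 control their translation. A few members have a paralog that is used in particular tissues. Rpl3l replaces Rpl3 in heart and skeletal muscle, Rpl39l is the form of Rpl39 known from male germ cells, and Rps27l is a relative of Rps27 whose transcription Trp53 can raise. Skeletal muscle, liver, skin, lung, kidney and spleen all need ribosomes, but at rates that differ with their growth and secretion.

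The tract could be looked for in the RefSeq promoter sequences of mouse build GRCm38.p6, which held 64 of the 84 members. The search was for a C at the annotated start followed by at least 4 bases that are each C or T, on the strand of the gene. It was found at 13 of the 64 members, 20.3%, and at 3.01% of all 27025 genes with an entry. The members with it were Rpl14, Rpl15, Rpl28, Rpl35, Rpl35a, Rpl38, Rplp2, Rps10, Rps15a, Rps18, Rps21, Rps27 and Rps6. The windows below run from 15 bases before the RefSeq start to 15 bases from it, with the tract in capitals. They show 4 members that hold it and 4 paralogs with a tissue pattern described further on, whose windows have no such tract at the annotated start. The RefSeq start lay between 0 and 281 bases from the 5′ end of the gene in GENCODE, so a tract a few bases away would be missed.
Rps15a (chr7:118116133-118116162, minus strand): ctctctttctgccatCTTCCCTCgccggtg
Rps21 (chr2:180257364-180257393, plus strand): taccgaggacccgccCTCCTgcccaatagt
Rplp2 (chr7:141447636-141447665, plus strand): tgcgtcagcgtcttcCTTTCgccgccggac
Rps27 (chr3:90213634-90213663, minus strand): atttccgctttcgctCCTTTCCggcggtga
Rpl3l (chr17:24727811-24727840, plus strand): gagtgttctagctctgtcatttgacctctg
Rpl39l (chr16:10170213-10170242, plus strand): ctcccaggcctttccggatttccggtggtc
Rps27l (chr9:66946071-66946100, plus strand): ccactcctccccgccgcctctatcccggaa
Rpl7l1 (chr17:46782642-46782671, minus strand): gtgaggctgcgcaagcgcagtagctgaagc

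Library totals lay between 18517963 and 43176392 counts. Several libraries, untreated and treated, held transcripts of another tissue or an unusual mix of cells. In 4F lung untreated replicate 2, 6 skeletal muscle markers summed to 4065 CPM, against 3.55 to 161 CPM in the other lung libraries. The kidney tubule markers summed to 4591 CPM in 4F skin untreated replicate 1, the macrophage markers to 3175 CPM in 4F muscle untreated replicate 3 and to 8442 CPM in B6 liver untreated replicate 2. In 4F spleen untreated replicate 2 the pancreas markers summed to 2169 CPM, against at most 277 CPM in the other spleen libraries. In 4F muscle doxycycline replicates 2 and 3 the hepatocyte markers summed to 361 and 225 CPM. The other muscle libraries had at most 64.4 CPM of them. In 4F lung doxycycline replicate 3 these markers summed to 255 CPM, against at most 38.4 CPM in the other lung libraries. Every skin library held 46402 to 99436 CPM of the skeletal muscle markers, so the skin samples held muscle transcripts. No pair of libraries of a tissue was alike within sampling noise. In the closest pair, B6 lung doxycycline replicate 1 and untreated replicate 2, the median squared difference was 3.76 times what counting alone would give.

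Members whose sequence is mostly their own were, with exceptions, counted at higher levels. Most ribosomal protein genes have processed pseudogenes, copies of the mRNA elsewhere in the genome, and a read that fits several places is often discarded. For each member the share of 50-base windows of its mRNA that occur in no other annotated gene was computed. It was under 50% in 53 members, and at least 1 annotated pseudogene shared a window with 80 of the 84. Members with at least 50% unique windows had a median level of 71.4 CPM per kb of mRNA, and the others 1.77 CPM per kb. Across the 84 members the Spearman correlation between the share and the level per kb was 0.55, a description across genes that share the same 60 libraries. Of the 31 members with at least 50% unique windows, 9 were under 10 CPM per kb, among them Rpl39 with 83.5% and 1.54 CPM per kb. Of the other 53, 13 were at or above 10 CPM per kb, such as Rps10 with 7.57% and 18.4 CPM per kb.

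Rpl8, a large subunit protein with 92.1% unique windows, averaged 761 CPM per kb over the 60 libraries, and Rps3, a small subunit protein with 97.0%, averaged 303 CPM per kb. Rpl3, a core protein of the large subunit next to the peptidyl transferase centre, had 14.4% unique windows and 0.33 CPM per kb. Rps6, the small subunit protein phosphorylated by S6 kinases, had 15.4% and 0.18 CPM per kb. The mean level was under 1 CPM in 29 members, 25 of which had under 50% unique windows. The 10 most counted members held 75.5% of all member counts. How reads with several matches were counted is not given in the sources used here, so low counts cannot be read as low expression, levels are not compared between members below, and the results are differences of the same member between libraries. In addition, 28 members share exon bases with another gene on the same strand, often a small nucleolar RNA, and 19 with a gene on the opposite strand. The library kit keeps strand, but whether the counting used it is not given in the sources used here, so these members are uncertain to that extent.

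**Figure D1:**
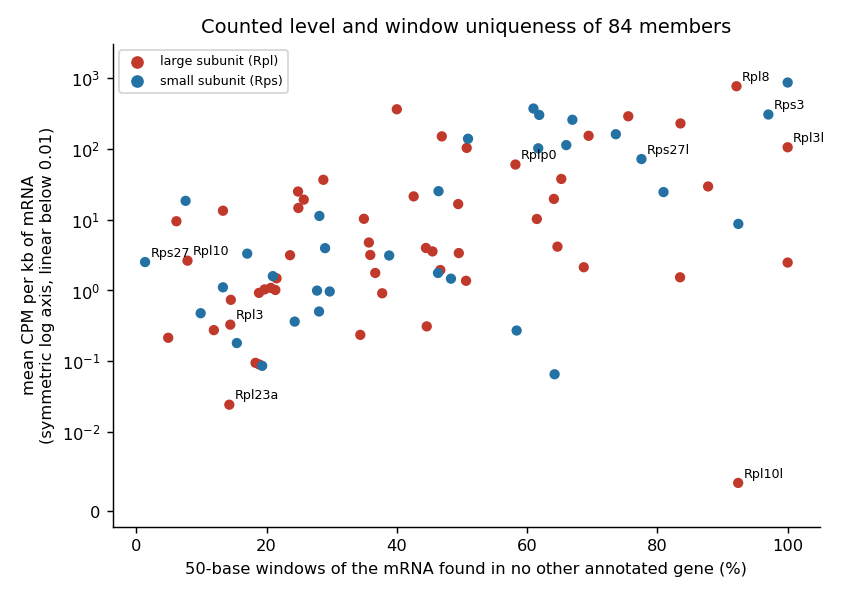
Each point is 1 of the 84 members, red for the large and blue for the small subunit, with the share of unique 50-base windows on the x axis and the mean CPM per kb of mRNA over 60 libraries on a symmetric log y axis. Rpl8 and Rps3 lie at the upper right, and Rpl3 and Rpl23a, with about 14% unique windows, lie below 1 CPM per kb.

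Summed over all 84 members, spleen had the highest level and the 10 libraries of a tissue differed up to 2.63-fold. The sum per library ranged from 6312 to 9298 CPM in spleen, with a median of 7482 CPM, and every spleen library lay above all libraries of kidney, liver, lung and muscle. Skin ranged from 3091 to 8135 CPM around a median of 4292 CPM and so overlapped with spleen, and lung ranged from 3376 to 5031 CPM around 4293 CPM. Muscle had a median of 3233 CPM with a range of 2088 to 3868 CPM, kidney 2849 CPM with 2258 to 5093 CPM, and liver 2598 CPM with 2195 to 3988 CPM. The ranges of kidney, liver and muscle overlap. In these bulk samples, fewer cells of a type and less RNA per cell cannot be told apart.

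The order depended on the scaling. A CPM divides by all counts and so also moves with the most abundant transcripts of a library. Trimmed-mean (TMM) scaling, which is meant to correct for this, had median factors of 0.65 in liver and 0.64 in muscle and of 1.42 in lung. With it, the median sum was 5352 CPM in spleen, 5160 CPM in muscle, 4708 CPM in skin, 3750 CPM in liver, 3084 CPM in lung and 2503 CPM in kidney. By these medians, muscle and liver moved above lung, while spleen stayed highest and kidney became lowest. The ranges overlapped, with 4709 to 7500 CPM in spleen, 2678 to 6024 CPM in muscle, 2822 to 7257 CPM in skin and 3412 to 5601 CPM in liver. Spleen was thus not separated from muscle, skin or liver with this scaling. The sums include Rpl3l, which alone had 293 to 631 CPM in muscle and 175 to 585 CPM in skin with library totals. In the other tissues it had at most 10.4 CPM. The order of muscle and skin without it was not examined, so muscle's place above skin cannot be taken for the members as a whole.

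**Figure D2:**
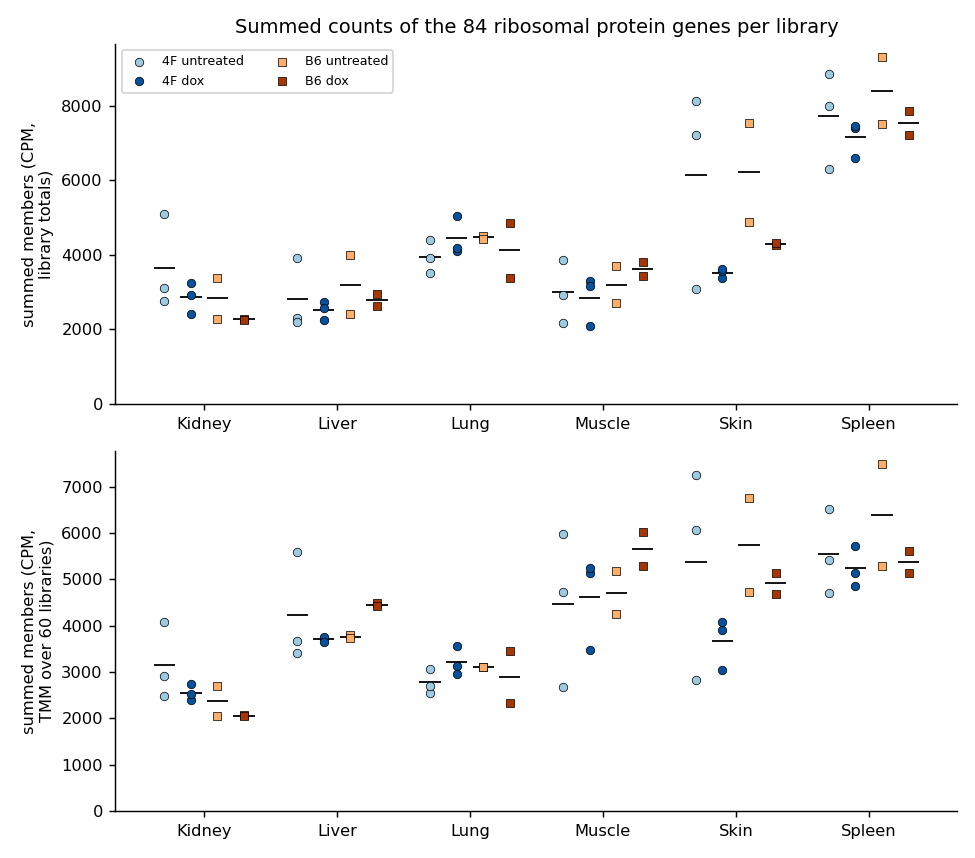
Summed CPM of the 84 members in each library, by tissue and arm, with library totals (top) and with TMM over the 60 libraries (bottom). Circles are 4F, squares B6, dark symbols doxycycline, and the short lines are arm means. By median, spleen is highest in both, while liver and muscle lie below lung at the top and above it at the bottom. Spleen libraries overlap with those of skin in both, and with those of muscle and liver at the bottom.

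In a single edgeR quasi-likelihood fit over the 60 libraries, each tissue was set against the mean of the other 5, with TMM scaling, and 72 members could be tested. A member was called when its Benjamini-Hochberg adjusted p over all 19918 genes tested was under 0.05. Tissue differences were common among all genes, and the members' counts are to be read against that. In spleen, 58 members were higher and 4 lower, where 39.6% of all genes were called higher and 36.6% lower, and the median log2 difference of the members was 0.63 against -0.01 for all genes. In skin, 33 members were higher and 2 lower, with backgrounds of 32.9% and 27.8% and a member median of 0.31. Kidney had 1 member higher and 54 lower, against 34.0% and 33.8% of all genes, with a median of -0.61. These directions of the median held with library totals alone, at 1.17 in spleen, 0.36 in skin and -0.40 in kidney.

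In liver and lung the direction turned with the scaling, while in muscle more members were called lower than higher with both. In liver, 22 members were higher and 5 lower with TMM (backgrounds 31.5% and 39.7%), with a median of 0.22, but 3 were higher and 37 lower with library totals alone (16.4% and 62.0%), with a median of -0.42. In lung, 0 were higher and 41 lower with TMM (36.5% and 32.6%), with a median of -0.40, but 20 were higher and 4 lower with library totals alone (61.6% and 14.3%). Muscle had 10 members higher and 22 lower (32.7% and 44.0%) with TMM and 1 higher and 64 lower with library totals alone (16.8% and 65.7%). Library totals alone shifted the median of all genes to -0.81 in liver, 0.60 in lung, -1.02 in muscle and 0.53 in spleen. Relative to those shifts the members lay above the typical gene in liver, muscle and spleen and below it in lung, as they did with TMM.

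Large and small subunit members moved alike in spleen and kidney. Their median log2 differences were 0.57 and 0.74 in spleen, and -0.58 and -0.67 in kidney. The subunit medians of the other tissues are not reported here. The neighbouring lists did not all follow them. Of 20 ribosome assembly factors, which build the subunits in the nucleolus, 18 were higher in spleen with a median of 0.66, while of 75 mitochondrial ribosomal protein genes tested, which serve the separate ribosome of mitochondria, 68 were lower there with a median of -0.66. With library totals alone these medians in spleen were 1.21 and -0.10. In muscle, 70 of the 75 mitochondrial ribosomal protein genes were higher, with a median of 0.98, or 0.24 with library totals alone. The translation factors, whose mRNAs also carry the pyrimidine tract, had medians of 0.29 in spleen and -0.53 in kidney, and 0.84 and -0.32 with library totals alone.

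**Figure D3:**
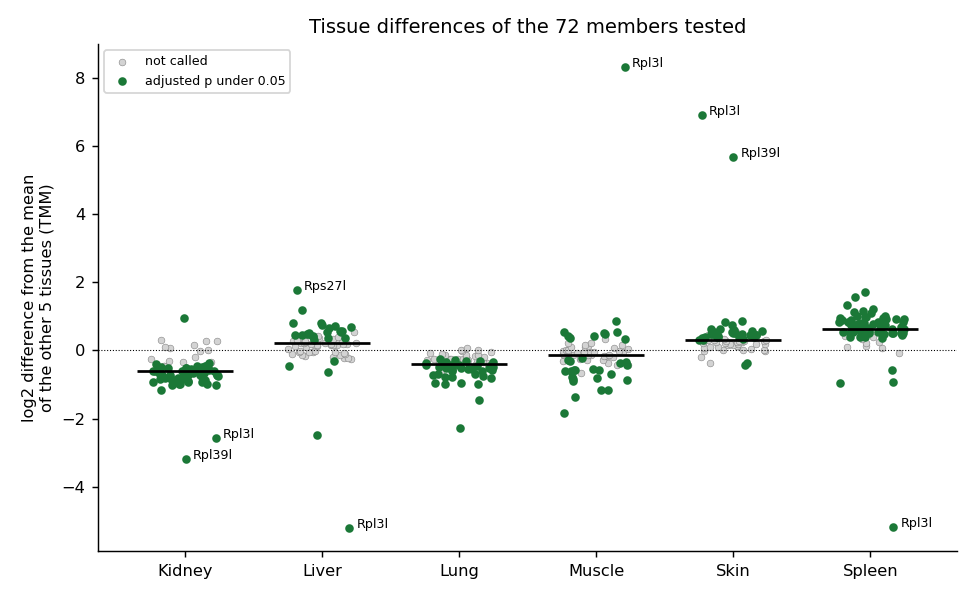
Log2 difference of each of the 72 tested members in a tissue from the mean of the other 5 tissues, with TMM scaling. Green points have an adjusted p under 0.05 and bars are medians. Rpl3l in muscle and skin and Rpl39l in skin stand far from the other members.

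Rpl3l, the striated muscle form of Rpl3 on chromosome 17, had the largest tissue difference among the members. Its level ranged from 293 to 631 CPM in muscle, with a median of 554 CPM, and from 175 to 585 CPM in skin, with a median of 304 CPM. In kidney the lowest, median and highest libraries had 0.83, 1.71 and 2.81 CPM, in lung 1.22, 1.56 and 10.4 CPM, in spleen 0.074, 0.33 and 1.27 CPM and in liver 0, 0.14 and 1.29 CPM. Muscle and skin overlapped with each other and with no other tissue. The log2 difference from the other tissues was 8.31 ± 0.26 (SE, adjusted p = 6.4e-34 by edgeR) in muscle and 6.92 ± 0.26 (adjusted p = 4.3e-30) in skin, and -5.21 ± 0.46 in liver.

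In muscle and skin, Rpl3l stood in a similar ratio to the skeletal muscle markers. The 6 markers summed to 104840 to 149319 CPM in muscle and to 46402 to 99436 CPM in skin. Per 1000 CPM of those markers, Rpl3l was at 2.79 to 5.31 CPM in muscle and at 3.43 to 5.98 CPM in skin, so the ratios of these tissues overlapped. The lung library with 10.4 CPM of Rpl3l was 4F untreated replicate 2, which held 4065 CPM of muscle markers and had a ratio of 2.56. The other 9 lung libraries had 1.22 to 2.22 CPM of Rpl3l with markers at 3.55 to 161 CPM, and ratios of 9.98 to 543, so their Rpl3l did not follow the markers. In B6 liver untreated replicate 2, which had the highest Rpl3l of the liver libraries, the muscle markers summed to 1.40 CPM.

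Rpl3 itself was counted poorly in every tissue. It had 0, 0.068 and 0.23 CPM in the lowest, median and highest muscle library and 0.78, 1.14 and 1.77 CPM in spleen, with no overlap. Its log2 difference was -1.83 ± 0.33 in muscle (adjusted p = 2.7e-06 by edgeR) and 1.72 ± 0.22 in spleen (adjusted p = 1.2e-09). Because 14.4% of its windows are unique, the ratio of the paralogs in a tissue cannot be taken from these counts.

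Rpl39l, on chromosome 16, was highest in skin. Its skin libraries ranged from 1.73 to 22.5 CPM with a median of 5.32 CPM, all above the highest library of any other tissue, 0.96 CPM in spleen. The log2 difference in skin was 5.67 ± 0.30 (adjusted p = 2.3e-23 by edgeR). Within skin the values did not follow the arms. The 4F untreated libraries had 22.5, 1.73 and 6.86 CPM and the treated ones 15.8, 4.82 and 6.08 CPM, and the B6 untreated libraries had 5.81 and 2.72 CPM against 3.08 and 1.77 CPM in the treated ones. The highest value belonged to 4F skin untreated replicate 1, the library with kidney tubule markers, and kidney libraries had at most 0.11 CPM of Rpl39l. That skin library also had the highest adipocyte, fibroblast and macrophage markers in skin, at 12914, 3975 and 796 CPM. 4F skin untreated replicate 2, with the lowest Rpl39l, had the lowest of them, at 286, 237 and 44.4 CPM. Its keratinocyte and hair markers were the highest in skin, at 18949 CPM. The part of the cell mixture in the Rpl39l values was not tested.

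Rps27l, on chromosome 9, was highest in liver. The liver libraries had 27.6, 68.0 and 75 CPM as lowest, median and highest, and the lowest was B6 untreated replicate 2, with its macrophage markers. Kidney had 34.1, 45.4 and 61.4 CPM, muscle 18.1, 29.6 and 46.7 CPM, skin 21.4, 28.5 and 47.6 CPM, spleen 15.8, 24.2 and 47.1 CPM and lung 13.6, 19.8 and 27.5 CPM. Neighbouring tissues in this order overlap. The log2 difference was 1.78 ± 0.15 in liver (adjusted p = 8.0e-16 by edgeR), -1.47 ± 0.19 in lung and -0.95 ± 0.18 in spleen, and with library totals alone it was 1.08, -0.86 and -0.39.

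The other paralogs differed less or were hardly counted. Rpl7l1, a relative of Rpl7 known as a ribosome assembly protein, ranged from 14.1 to 26.3 CPM in muscle and from 45.8 to 66.5 CPM in spleen, and was 0.81 ± 0.065 log2 units higher in liver with TMM, but 0.16 with library totals alone. Rpl36al, a relative of Rpl36a, was 1.20 ± 0.17 log2 units higher in liver, or 0.54 with library totals alone, and 0.89 higher in spleen. Rpl22l1 stayed between 0 and 0.49 CPM in all libraries, was tested in no tissue and has 34.4% unique windows. Rpl22 itself, with 75.5%, had medians of 91.7 CPM in liver and 180 CPM in spleen. Rpl10l, a male germ cell paralog of Rpl10 with 92.4% unique windows, had no count in 57 of the 60 libraries. A count of 0 allows up to 3 counts, which is 0.069 to 0.16 CPM at these depths, and covers counting error only.

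Among the remaining members, Rpl5 and Rpl13a left the common pattern. Both share exon bases with other genes on the same strand, and Rpl5 also with 1 on the opposite strand. Their counts therefore carry the uncertainty given above for such members. Rpl5, which with Rpl11 and a small ribosomal RNA can bind the Trp53 regulator Mdm2, was the member called higher in kidney. Its kidney libraries had 22.6, 35.6 and 62.7 CPM as lowest, median and highest, against 9.69, 12.7 and 23.4 CPM in spleen. The log2 difference was 0.94 ± 0.13 in kidney (adjusted p = 9.0e-09 by edgeR) and -0.92 ± 0.15 in spleen, but 6.16% of its windows are unique and the reads of its copies cannot be told apart. Rpl11 had log2 differences of 0.31 in kidney and 0.13 in spleen.

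Rpl13a, known in human cells for a role outside the ribosome in silencing inflammatory mRNAs, had 35.4 to 79.9 CPM in spleen and 2.97 to 7.52 CPM in muscle, and these ranges overlapped with no other tissue. Its log2 difference was 1.32 ± 0.12 in spleen (adjusted p = 2.8e-14 by edgeR) and -1.36 ± 0.15 in muscle (adjusted p = 8.4e-12), and the sign was the same with library totals alone. Of the windows of Rpl13a, 42.6% are unique. Rpl12 was 1.56 ± 0.17 log2 units higher in spleen and Rpl15 0.88 ± 0.10 higher in muscle, or 0.13 with library totals alone. For Rplp0, the stalk protein often used as a reference gene, the median was 126 CPM in spleen, 89.4 CPM in skin, 74.0 CPM in lung, 69.6 CPM in muscle, 51.3 CPM in kidney and 42.7 CPM in liver. Its log2 difference was -0.80 in kidney and 0.51 in spleen, so it varied between tissues like the other members.

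**Figure D4:**
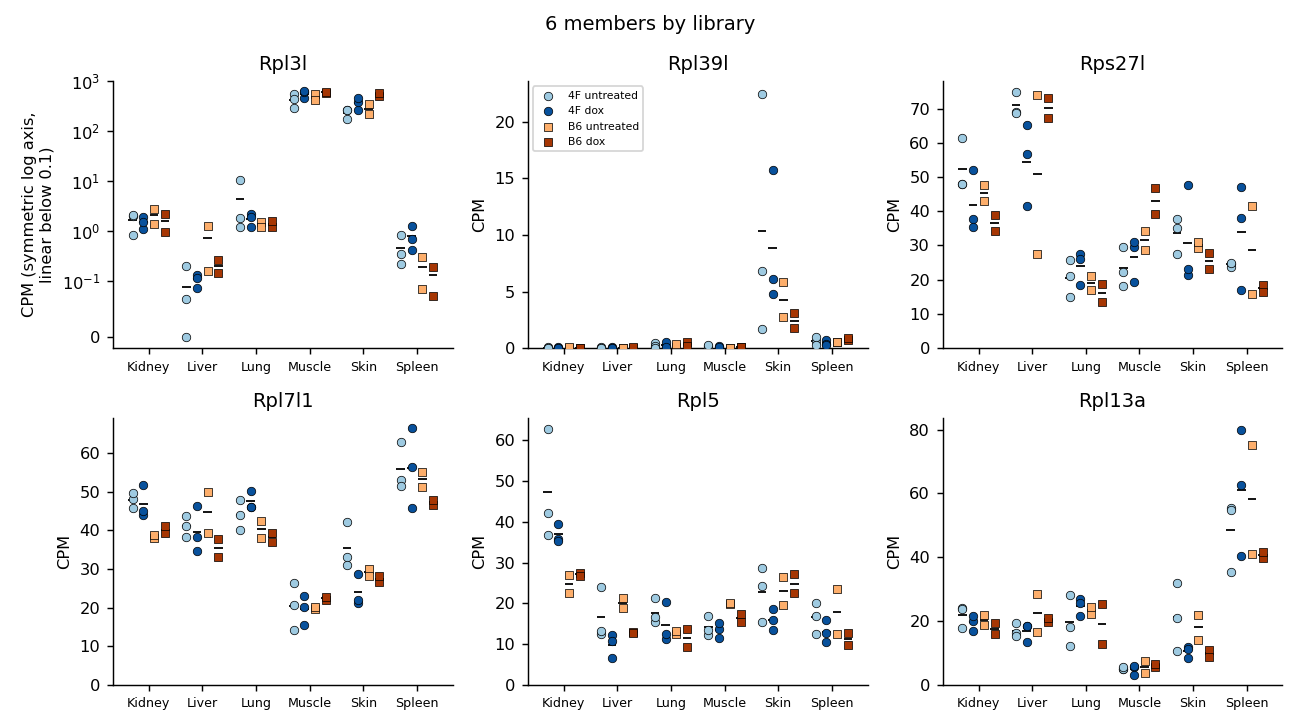
CPM of 6 members in every library, with circles for 4F, squares for B6, dark symbols for doxycycline and short lines for arm means. The Rpl3l axis is symmetric log. Rpl3l is high in muscle and skin, Rpl39l in skin, Rps27l in liver, Rpl5 in kidney and Rpl13a in spleen.

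The comparison of treated with untreated 4F mice asks what cyclic induction of the 4 factors and doxycycline itself do together. The same comparison in B6 mice asks what doxycycline does alone. In neither genotype was a member called in any tissue. In 4F, 0 members were called of 67 in kidney, 67 in liver, 73 in lung, 66 in muscle, 75 in skin and 75 in spleen. The share of all genes called was 0.0% in every tissue except muscle, with 0.00609%. DESeq2 also called 0 members, where it called 0.094% of all genes in kidney, 0.0491% in liver, 0.0674% in lung, 0.505% in muscle, 3.19% in skin and 0.135% in spleen. At an unadjusted p under 0.05, edgeR had 10 members in kidney, 2 in liver, 4 in lung, 2 in muscle, 7 in skin and 1 in spleen. All genes reached that level in 5.13%, 1.79%, 6.04%, 9.19%, 12.4% and 3.91% of cases in the same order.

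The median log2 fold change of the members was -0.54 in 4F skin, where 8 of 75 had a positive value, and -0.29 in 4F kidney, where 6 of 67 had one. It was -0.16 in liver and 0.26 in lung, where 58 of 73 were positive, -0.08 in muscle and -0.07 in spleen. All genes tested had medians between -0.07 and 0.00. Other short protein-coding genes, with at most 1000 exon bases, had medians of -0.40 in skin, -0.16 in kidney and 0.13 in lung. The members were thus on the same side as other short genes in these tissues. In muscle the short genes had a median of 0.30.

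Leaving out 1 library moved these medians to different extents. Without untreated replicate 2 they changed sign in liver (0.022), muscle (0.087) and spleen (0.064) and were 0.12 in lung and -0.24 in skin, while skin stayed between -0.85 and -0.24 and lung between 0.12 and 0.36 whichever 4F library was left out. In 4F kidney untreated replicate 2 the summed level was 5093 CPM, against 2258 to 3373 CPM in the other kidney libraries, and its kidney tubule markers were the lowest at 15289 CPM, against 23195 to 40638 CPM. Without it the 4F kidney median was -0.11. In 4F skin, untreated replicates 2 and 3 had summed levels of 8135 and 7218 CPM, and replicate 1 had 3091 CPM, below the treated libraries at 3376, 3568 and 3632 CPM. The keratinocyte and hair markers summed to 18949 and 13882 CPM in replicates 2 and 3 and to 1279 CPM in replicate 1, and to 426 to 5893 CPM in the treated libraries. The part of the cell mixture in the skin difference was not tested. Without replicate 1, 7 members were called lower in treated 4F skin, Rps15a, Rps20, Rpl32, Rpl26, Rps15, Rplp0 and Rpl41, with 3.79% of 18281 genes called, and the median was -0.85.

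The members with the smallest p-values in 4F mice show the upper end of the differences. They were picked by these same values, so a lack of overlap between their arms is no further evidence. In kidney, Rpl34 had 3.47, 2.82 and 4.50 CPM in the treated and 8.01, 12.5 and 6.97 CPM in the untreated libraries. These groups did not overlap, and the log2 fold change was -1.29 ± 0.30 with an adjusted p of 0.92 by edgeR. For Rpl23 in kidney the treated libraries had 24.4, 32.2 and 29.7 CPM and the untreated ones 38.8, 61.7 and 36.0 CPM, again without overlap.

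In skin, Rps3a1 had 2.92, 1.62 and 2.30 CPM in the treated and 6.89, 5.33 and 4.77 CPM in the untreated libraries, with a log2 fold change of -1.11 ± 0.38 and an adjusted p of 0.39 by edgeR. Here all 3 untreated libraries were above all treated ones, replicate 1 included. Rpl32 in skin had 47.7, 61.9 and 55.7 CPM against 63.8, 181 and 144 CPM, so its untreated replicate 1 lay just above the treated range.

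In lung, Rpl28 had 2.65, 3.43 and 3.26 CPM in the treated and 2.27, 2.05 and 1.36 CPM in the untreated libraries, with a log2 fold change of 0.82 ± 0.27 and an adjusted p of 0.74 by edgeR. Rpl23 in lung was at 47.6, 47.8 and 45.7 CPM against 41.5, 30.6 and 29.8 CPM. It was thus above the untreated range in lung and below it in kidney, in neither case past the threshold. In muscle and spleen the smallest p-values belonged to Rpl12 (-1.74 ± 0.54) and Rps13 (-0.96 ± 0.39).

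In B6 mice 0 members were called in any tissue by edgeR or DESeq2. EdgeR called 0.0% of all genes, and DESeq2 called 0.166% in kidney, 0.172% in liver, 0.0% in lung, 0.0974% in muscle, 0.495% in skin and 0.834% in spleen. The median log2 fold change was -0.34 in kidney, 0.10 in liver, -0.21 in lung, 0.24 in muscle, -0.39 in skin and -0.32 in spleen. At an unadjusted p under 0.05 there were 3 members in kidney, 3 in liver, 1 in lung, 8 in muscle, 1 in skin and 2 in spleen, against 3.89%, 9.39%, 0.353%, 6.18%, 7.87% and 6.31% of all genes. Short genes had medians of 0.51 in muscle and -0.45 in skin. With 2 libraries in each arm, 1 library decided several medians. Without untreated replicate 2 the median was -0.08 in kidney, -0.09 in skin and 0.03 in spleen. That spleen library had the highest sum of all, 9298 CPM, with 50494 CPM of red cell and 12002 CPM of neutrophil markers, and the part of its cell mixture was not tested.

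Rps21, a small subunit protein whose start carries the tract printed above, had the smallest p in B6 muscle. It was at 56.2 and 66.1 CPM in the treated and 17.6 and 34.0 CPM in the untreated libraries. The log2 fold change was 1.29 ± 0.29 with an adjusted p of 0.76 by edgeR. In B6 liver it was at 59.2 and 51.5 CPM against 29.5 and 38.3 CPM, with 1.03 ± 0.34 and an adjusted p of 0.50. Without B6 liver untreated replicate 1, Rps21 and Rps27l were called higher, but 34.7% of all genes were called in either direction there, far above the members' share. Without B6 spleen untreated replicate 1, 7 members were called lower, where 11.2% of all genes were called, a share near that of the members. Rpl3l had the smallest p in B6 skin, with 499 and 585 CPM in the treated and 341 and 222 CPM in the untreated libraries, and 95442 and 97811 CPM of skeletal muscle markers against 78469 and 64621 CPM.

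The difference between the 4F and B6 effects was tested as an interaction in the same fits. 0 members were called in any tissue by edgeR or DESeq2. EdgeR called 0.0% of all genes, and DESeq2 called 0.0995% in kidney, 0.0614% in liver, 0.0% in lung, 0.304% in muscle, 0.35% in skin and 0.285% in spleen. The median difference was 0.47 in lung, 0.30 in spleen, -0.33 in muscle, -0.31 in liver, -0.22 in skin and -0.02 in kidney. At an unadjusted p under 0.05 there were 0 members in kidney, 2 in liver, 4 in lung, 4 in muscle, 0 in skin and 0 in spleen, against 3.66%, 9.93%, 0.861%, 3.94%, 3.25% and 7.12% of all genes. The genotypes also differ in age, sex and, by the study's design, treatment length, which cannot be told apart from the cassette. In skin, kidney and spleen the members' medians were negative in both genotypes. In liver and muscle they were negative in 4F and positive in B6, and in lung positive in 4F and negative in B6. Several of these signs changed when 1 library was left out.

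**Figure D5:**
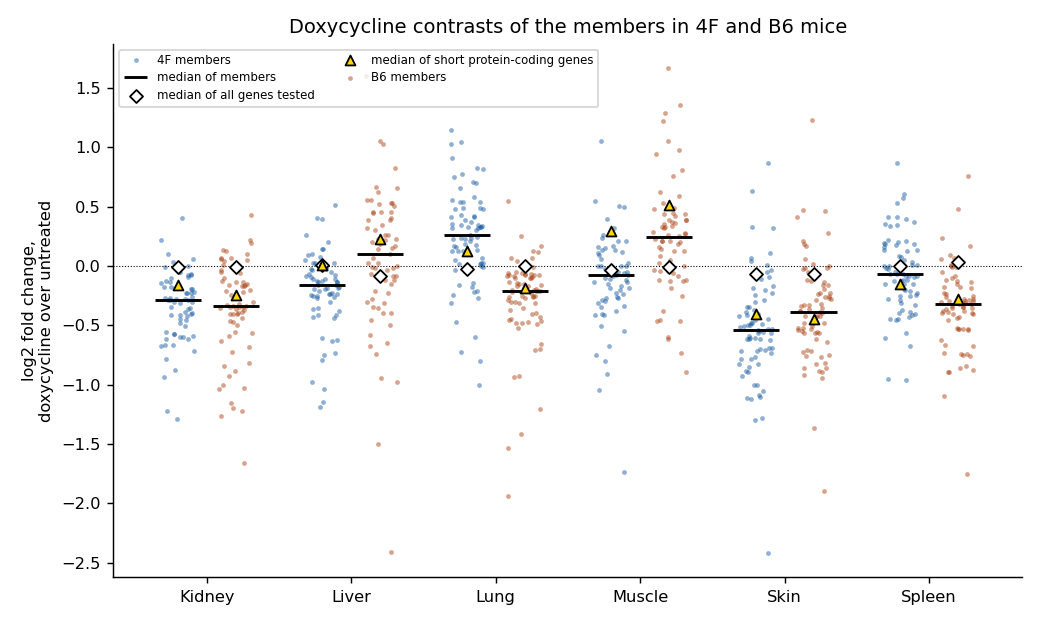
Log2 fold change of each tested member with doxycycline, blue for 4F and brown for B6, by tissue. Bars are member medians, diamonds medians of all genes tested and triangles medians of short protein-coding genes. No point is past the threshold, and in skin, kidney and lung the bar and the triangle lie on the same side of 0.

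Sex could be compared within the 4F arms, which hold 2 females and 1 male each. In kidney, Rps27l was the 1 member called of 67, with 4.21% of all genes called. Treated females had 37.9 and 35.4 CPM and the treated male 52.0 CPM, and untreated females had 47.9 and 48.0 CPM against 61.4 CPM in the untreated male. Each male was above both females of its arm. The log2 difference, female minus male, was -0.62 ± 0.11 with an adjusted p of 0.020 by edgeR. DESeq2 called it too, with 10.3% of all genes, and 23.1% of all genes had an unadjusted p under 0.05. B6 males had 34.1 to 47.8 CPM, which overlaps with the 4F females, and the call was lost without any one of the treated 4F libraries or without the untreated male.

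In muscle, 62 of 66 members were higher in females, with a median log2 difference of 0.62 against -0.03 for all genes. 0 were called by edgeR, where 0.110% of all genes were called, and 30 had an unadjusted p under 0.05, against 28.2% of all genes. DESeq2 called 20 members, all higher in females, with 17.2% of all genes called. Rplp0 was at 72 and 67.2 CPM in treated females and 39.9 CPM in the treated male, and at 64.6 and 91.5 CPM in untreated females and 42.7 CPM in the untreated male. Its log2 difference was 0.94 ± 0.17 with an adjusted p of 0.057 by edgeR. Rpl41 and Rps24 had 1.09 ± 0.18 and 0.90 ± 0.17, with adjusted p of 0.056 and 0.057. B6 males had 55.7 to 82.4 CPM of Rplp0, above both 4F males. The difference rests on 1 male in each 4F arm, and the untreated one is the library with 3175 CPM of macrophage markers, against 16.7 to 88.5 CPM in the other muscle libraries. Short protein-coding genes had a median of 0.62 in the same contrast, as large as that of the members. Between the sexes in liver, lung, skin and spleen, 0 members were called by edgeR or DESeq2, where edgeR called 0.0123%, 0.0311%, 0.161% and 0.0323% of all genes and 2, 0, 1 and 1 members had an unadjusted p under 0.05, against 3.66%, 4.04%, 5.87% and 7.46% of all genes. DESeq2 called 0.669%, 0.513%, 1.62% and 0.334% of all genes there.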

How the data were processed

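Whole-number read counts per gene for 60 libraries were used as the authors deposited them. Total RNA had been prepared with a stranded total RNA kit, per the labels' protocols, and the build was GRCm38, per the submitters' processing notes. No source used here names the aligner, the counter or the treatment of reads with several matches. Gene symbols and lengths came from GENCODE vM21, on the same build. The members and lists were chosen with earlier results of these data known. Genes passing edgeR's filterByExpr (minimum 10 counts, 15 in total) were tested with edgeR 4.0.16 (R 4.3.3), TMM scaling and robust quasi-likelihood fits. Each tissue was fitted on its 10 libraries with 4 arms and sex, leaving 5 residual degrees of freedom. Tissues were compared in 1 fit with arm and sex as terms and no term for the mouse, and as an alternative with the runs of sample numbers as a block. P-values were adjusted by Benjamini-Hochberg over all genes tested, with a threshold of 0.05. Errors are standard errors. DESeq2 1.42.0, other scalings, other filters, left-out libraries and fits without sex or with 1 genotype were alternatives, and the scripts were tested on simulated data. Members named are those called, otherwise the 3 with the smallest p, the paralogs, a set of members with known roles and the extremes of each tissue, and some of them are not reported here.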

Additional observations from a re-analysis of the deposited data

Results flagged for a closer look

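In a set of 61 checks over the 10 libraries of a tissue (the summed level and 10 members), 9 values lay farther from the rest than Dixon's limit for 10 values allows, a limit that chance passes in about 1 of 20 groups. The checks share libraries and are not independent. 4F kidney untreated replicate 2 was high in 4 of them, with a sum of 5093 CPM (next 3373), Rpl5 at 62.7 CPM (next 42.2), Rpl8 at 912 CPM (next 550) and Rps3 at 658 CPM (next 503). B6 liver untreated replicate 2, with 8442 CPM of macrophage markers, was high for Rpl3l at 1.29 CPM and Rpl13a at 28.5 CPM. The lung library with skeletal muscle markers, 4F untreated replicate 2, had 10.4 CPM of Rpl3l. B6 spleen untreated replicate 2 had 219 CPM of Rplp0, and B6 muscle doxycycline replicate 2 had 0.98 CPM of Rpl36al.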

How the results depend on the processing

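No paired analysis was possible because the labels give no replicate numbers shared between the arms. Between tissues, a replicate block of the 10 runs of sample numbers, added after the data were seen, called 253 member differences against 252 without it, of which 247 were the same with the same sign. Deviations of libraries of the same run correlated over 0.1 in 92 of 150 pairs (median 0.12, -0.28 to 0.47). Pairs of different runs were not set beside them, so these values cannot show whether the runs share mice. Of the counts of members called, most kept within 1.5 times their value under the alternatives run. Without the filter on low counts, 6 members were called lower with doxycycline in 4F kidney (0.971% of all genes called), 1 in B6 kidney (1.44%) and 12 were called higher in female muscle (3.09%). Without the 6 doubted untreated libraries, 7 members were called lower in 4F skin (3.79%) and 1 in female spleen (8.64%), and the B6 spleen median was 0.027. No treated library was among the 6, although some treated muscle and lung libraries held the hepatocyte markers given above. This removal was therefore uneven between the arms, and the choice of the 6 is not detailed here. For 4F skin it gave the same result as leaving out untreated replicate 1, so it is no second check. DESeq2 called 20 members in female muscle (17.2%). With library totals alone, a scaling added after the data were seen, 1 member was called in female muscle (1.72%) and the B6 liver median was -0.21. That scaling called 7 members higher in kidney (41.7%), 3 higher and 37 lower in liver (16.4% and 62.0%), 20 higher and 4 lower in lung (61.6% and 14.3%), 1 higher and 64 lower in muscle (16.8% and 65.7%) and 1 lower in skin (24.8%). Untreated libraries alone, with fewer samples, called 31 lower in kidney (23.0%), 9 higher and 2 lower in liver (26.1% and 26.6%), 3 higher and 13 lower in muscle (28.7% and 31.6%) and 1 lower in skin (12.6%).

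Leaving out 1 library at a time gave 0 to 7 members called in 4F skin, 0 to 2 in B6 liver, 0 to 7 in B6 spleen, 0 to 1 for the difference between genotypes in liver, 0 to 2 between the sexes in kidney and 0 to 8 in muscle. In the fits with the most members, the share of all genes called was 3.79%, 34.7%, 11.2%, 32.2%, 14.7% and 16.4% in that order, against at most 4.21% with every library. The medians ranged from -0.44 to -0.11 in 4F kidney, -0.28 to 0.022 in liver, 0.12 to 0.36 in lung, -0.18 to 0.087 in muscle, -0.85 to -0.24 in skin and -0.19 to 0.064 in spleen. In B6 they ranged from -0.47 to -0.083 in kidney, 0.12 to 0.17 in liver, -0.54 to 0.026 in lung, 0.013 to 0.50 in muscle, -0.62 to -0.095 in skin and -0.64 to 0.029 in spleen. Where an arm kept 1 library, it was assumed to vary like the others. The cause of these shifts was not tested. Of 651 recalculations for single members named in the contrasts, 0 changed sign, 21 passed the threshold where the main value had not and 4 lost it. These members were named for small p-values in the same libraries, so a steady sign adds little support. Members with few unique windows mostly had low counts at these depths, which limits their precision.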
